A study of Mus musculus with 24 samples.

Results

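The genes described here are 31 genes for enzymes and membrane proteins of the lysosome. The 31 were taken by name from the 27670 gene names and other features on the array, with Ctsa found under its older name Ppgb. They were chosen with earlier results of these data known. They comprise 8 proteases (Ctsa, Ctsb, Ctsd, Ctsh, Ctsk, Ctsl, Ctsz and Tpp1) and 7 glycosidases (Gla, Gaa, Glb1, Gusb, Hexa, Neu1 and Man2b1). A further 7 are enzymes and carriers of lipids or their cofactors (Lipa, Asah1, Ppt1, Npc1, Npc2, Psap and Grn), 6 are membrane proteins (Lamp1, Lamp2, Cd63, Scarb2, Cln3 and Mcoln1), and 3 belong to the proton pump (Atp6ap1, Atp6v0d1 and Atp6v1a). All 31 passed the filter on dim probes, and the brightest probe of 30 of them was well above background on all 24 arrays, so no member was lost for low signal.

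RNA came from mouse embryonic fibroblasts, primary cells grown from day 13.5 embryos of C57BL6 crosses between CHIP heterozygotes, with β-mercaptoethanol in the medium at 37 °C and 5% CO2. CHIP, the product of Stub1, is a ubiquitin ligase that acts with the heat shock proteins HSP70 and HSP90. CHIP null (CHIP-/-) and wildtype (CHIP+/+) cultures were heated at 43 °C or held at 37 °C, with a time label of 30 or 240 min for heated and unheated cultures alike. The 8 groups were therefore, at each time, heated CHIP null, unheated CHIP null, heated wildtype and unheated wildtype cells, with 3 arrays each that the labels call biological replicates. The labels do not say whether these came from separate embryos or cultures, so p-values measure the spread between these samples only. Each array compared Cy5-labelled sample RNA with Cy3-labelled Universal Mouse Reference RNA, and the values below are log2 ratios of sample over that reference. A change is a difference between group means of these ratios. It was called when its Benjamini-Hochberg adjusted p in the limma fit over 13493 tested genes was under 0.05.

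Lysosomes are acidic compartments in which cells break down proteins, glycans, lipids and nucleic acids brought in by endocytosis or autophagy. Newly made hydrolases travel there from the Golgi, many of them on mannose 6-phosphate receptors, while a V-type ATPase pumps in the protons that the hydrolases need. Many lysosomal genes carry a short element, the CLEAR motif, that the transcription factor TFEB and its relatives recognise, and phagocytes such as macrophages express many of these genes at high levels.

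Several properties of the whole data set touch these genes. Stub1 lay between -2.43 and -1.72 on the 12 CHIP null arrays and between -0.24 and -0.01 on the 12 wildtype arrays, so every CHIP null array lay below every wildtype array. All 24 columns of the deposited value table matched the scanner file of the other time label (r of at least 0.9975, against at most 0.9004 for the same label), so 30 and 240 min here are the times of the scanner files, and the sources used here do not settle which is right. The 6 slides held 30 or 240 min arrays and never both, so time and slide cannot be told apart, and no slide held both genotypes at the same time and treatment. Xist, the RNA of the inactive X chromosome, was not well above background on any of the 6 wildtype arrays at 30 min (-3.49 to -2.94) but was on all 6 CHIP null arrays (-1.71 to -1.33). At 240 min it was well above background on all arrays of both genotypes (-1.99 to -1.58 in CHIP null and -1.87 to -1.64 in wildtype cells). The Y-linked genes Ddx3y and Eif2s3y showed the reverse: they were well above background on all 6 wildtype arrays at 30 min (0.39 to 0.55 and 0.05 to 0.36) and on none of the other 18 arrays. The wildtype cells of 30 min thus differed from all other groups in sex-linked transcripts. In any contrast of them with another group, that difference of cells cannot be told apart from genotype or time. Of 16 macrophage markers, 12 were tested, and Itgam and Ptprc were well above background on no array. The mean log2 ratio of the 12 tested macrophage markers was highest in the unheated wildtype cells at 30 min, from -0.43 to -0.40. It ranged from -1.23 to -1.15 in heated CHIP null, -1.31 to -1.19 in unheated CHIP null and -1.03 to -0.89 in heated wildtype cells at that time, and at 240 min from -1.62 to -1.49, -1.84 to -1.75, -1.27 to -1.20 and -1.44 to -1.35 in the same 4 groups. No member is in the macrophage list, but Ctss is in that list and in the list of other hydrolases used below.

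The group means of single members spanned 0.30 to 1.64 on the log2 scale, with a median span of 0.60, against a median SD of 0.07 within groups. Of the 31 members, 12 had their highest mean in heated wildtype cells at 30 min, 9 in unheated wildtype cells at 30 min and 7 in heated wildtype cells at 240 min. The lowest mean fell in unheated CHIP null cells for 11 members at 240 min and for 8 at 30 min. How often these groups were highest or lowest over all tested genes is not given here, so the counts cannot be set against it. Among the proteases, Ctsd (cathepsin D, an aspartic protease) had the widest span, from a mean of -0.41 in unheated CHIP null cells at 240 min to 1.04 in unheated wildtype cells at 30 min. Ctsk, a cysteine protease best known from osteoclasts, had the narrowest of the proteases, 0.43. The glycosidases spanned 0.35 for Gusb (beta-glucuronidase) to 0.89 for Hexa, the alpha subunit of beta-hexosaminidase A. The membrane proteins spanned 0.30 for Cln3 to 0.56 for Mcoln1, a cation channel of the lysosomal membrane. Grn, the precursor of the granulins, spanned 1.64, the widest of all 31 members, and had the largest spread within a group (SD 0.35).

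**Figure D1:**
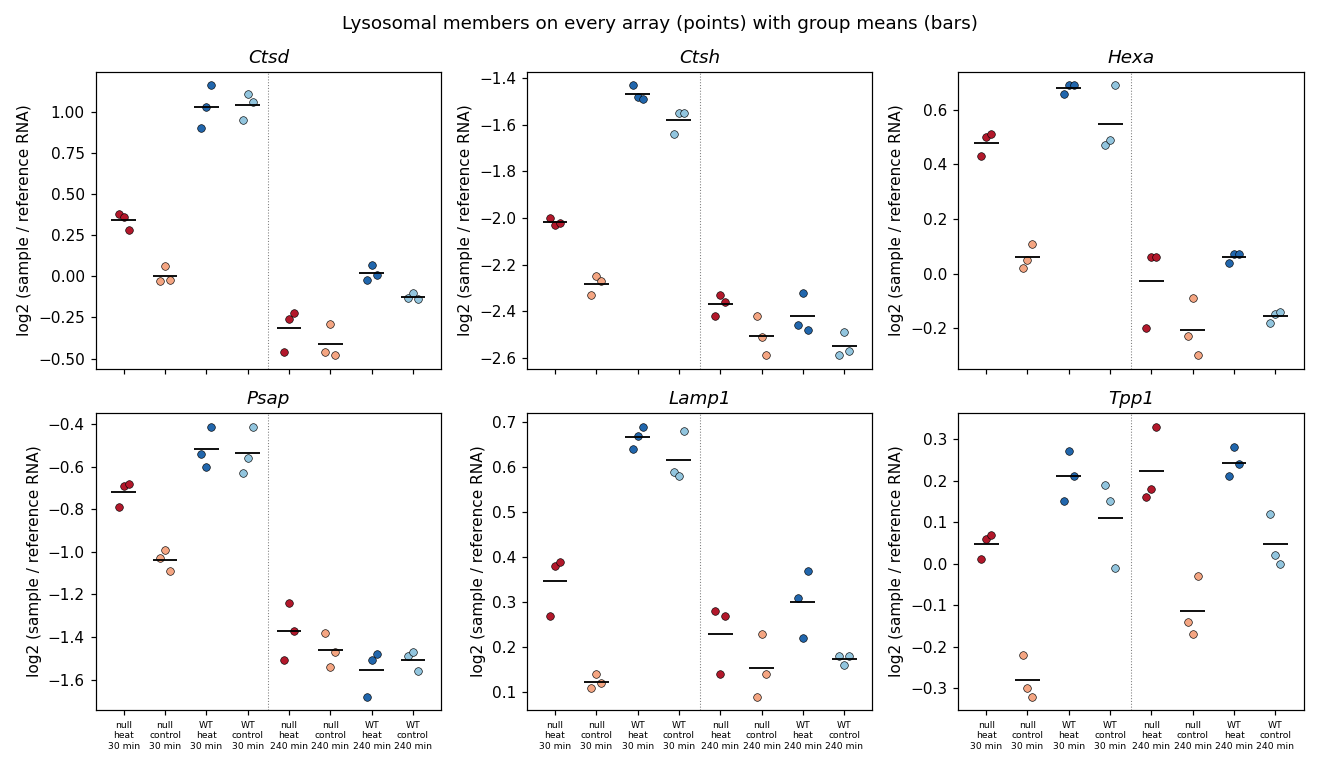
Log2 ratio of sample over reference RNA (vertical axis) of 6 members on each of the 24 arrays (points, 3 per group, in the order of their replicate number) with the group mean (bar). At 30 min every CHIP null array lies below every wildtype array for Ctsd and Ctsh, with Ctsd from 0.28 to 0.38 in heated and -0.03 to 0.06 in unheated CHIP null cells, against 0.90 to 1.16 in heated and 0.95 to 1.11 in unheated wildtype cells.

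Unheated CHIP null cells were compared with unheated wildtype cells at 30 min to ask how these genes differed with genotype, with the sex-linked difference given above between the same groups. Of the 31 members, 23 were called lower in the CHIP null cells and none was called higher, where 19.4% of all tested genes were called lower and 14.7% higher (34% in either direction). The members' median change was -0.27, against -0.01 over all tested genes. By role, 7 of 8 proteases, 5 of 7 glycosidases, 5 of 7 lipid enzymes and carriers, 3 of 6 membrane proteins and all 3 pump subunits were called lower. With each array centred on its median instead of loess, 3 members were called lower (Ctsd, Ctsh and Atp6v0d1) and the members' median change was -0.18, while the slide as a block left 9 called lower with a median change of -0.30.

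Ctsd had the largest difference of the 31 members. Its log2 ratios were -0.03, 0.06 and -0.02 in the CHIP null cells, against 0.95, 1.11 and 1.06 in the wildtype cells, so all 3 CHIP null arrays lay far below the lowest wildtype array. The change was -1.03 ± 0.07 (SE), 2.05-fold lower in the CHIP null cells (limma adjusted p = 1.2e-12), and it was -0.80 with median centring and -1.08 with the slide as a block. A dimmer second Ctsd probe gave -0.63, also called. Ctsh, a cysteine protease with aminopeptidase activity, read -2.33, -2.25 and -2.27 in the CHIP null cells, against -1.64, -1.55 and -1.55 in the wildtype cells. It was 1.63-fold lower in the CHIP null cells (-0.70 ± 0.06, limma adjusted p = 5.8e-11).

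Ctsb, an abundant cysteine protease, read -0.87, -0.79 and -0.73 in the CHIP null cells, against -0.25, -0.28 and -0.32 in the wildtype cells, without overlap. Its change was -0.51 ± 0.05 (limma adjusted p = 8.7e-09), which lost its call with median centring (-0.20), and its second, much dimmer probe gave -0.10, which was not called. Ctsl, a related endopeptidase, read -0.60, -0.72 and -0.64 in the CHIP null cells and -0.14, -0.25 and -0.07 in the wildtype cells. It was lower, at a change of -0.50 ± 0.06 (limma adjusted p = 2.1e-07), and with median centring the change was -0.13 and not called. Ctsa, the protective protein of beta-galactosidase and neuraminidase, was lower, at -0.45, the serine peptidase Tpp1 at -0.39 and Ctsz at -0.29. Ctsk, at 0.15 (adjusted p = 0.25 by limma), was the protease that was not called.

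The glycosidases called lower in the unheated CHIP null cells at 30 min were Hexa (-0.49 ± 0.07), the sialidase Neu1 (-0.47 ± 0.07), the alpha-mannosidase Man2b1 (-0.32 ± 0.05), beta-galactosidase Glb1 (-0.26 ± 0.07) and the acid alpha-glucosidase Gaa (-0.24 ± 0.07). Gusb (-0.07) and Gla (0.08) were not called. Hexa read 0.02, 0.05 and 0.11 in the CHIP null cells, against 0.47, 0.49 and 0.69 in the wildtype cells. Among the lipid group, Psap, the precursor of the saposins that present lipids to their hydrolases, was lower, at -0.50 ± 0.07, the cholesterol carriers Npc2 and Npc1 at -0.27 and -0.26, the acid lipase Lipa at -0.26 and the thioesterase Ppt1 at -0.18. The acid ceramidase Asah1 (-0.09) and the brightest probe of Grn (-0.27, adjusted p = 0.19 by limma) were not called, while the second Grn probe was called lower at the same change of -0.27 (limma adjusted p = 0.002).

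Lamp1, a major glycoprotein of the lysosomal membrane, read 0.11, 0.14 and 0.12 in the CHIP null cells, against 0.59, 0.58 and 0.68 in the wildtype cells. Its change was -0.49 ± 0.06 (limma adjusted p = 5.5e-08). Mcoln1 was lower, at -0.42 and Scarb2, the receptor that carries glucocerebrosidase to lysosomes, at -0.26, whereas Cln3 (-0.17) and the tetraspanin Cd63 (-0.11) were not called. The brightest Lamp2 probe was not called (-0.20), but the other, of nearly the same brightness, was called lower here (-0.53) and in heated cells at 30 min (-0.31). Of the pump subunits, Atp6v0d1 was lower, at -0.46, the accessory subunit Atp6ap1 at -0.27 and the catalytic subunit Atp6v1a at -0.26. Atp6ap1, Gla and Lamp2 lie on the X chromosome, and Xist and the Y-linked genes differed between the genotypes at this time as given above.

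The promoters of the members were searched for the CLEAR-type sequence TCACGTGA, since many lysosomal genes carry the CLEAR motif. A share of members above that of all genes therefore says nothing of these changes. RefSeq promoters on GRCm38.p6, from 250 bases before to 50 after the gene start, were available for 27 members. CACGTG, searched on both strands and the same on each, was present in 11 of the 27 (40.7%), against 8.09% of 27025 genes. Its extension TCACGTGA, which contains CACGTG, was present in 7 of the 27 (25.9%), against 1.12% of genes. A longer form, TCACGTGA with G directly before it and C directly after it, was searched as well. It was present in 1 of the 27 (Cln3, 3.7%), against 0.37% of genes. These matches are letters in a window and say nothing of whether a factor was bound. In the windows below TCACGTGA is in capitals, and each sequence is written 5′ to 3′ on the strand of its gene.
Ctsd, chr7:142387889-142387956, minus strand, motif from position -99: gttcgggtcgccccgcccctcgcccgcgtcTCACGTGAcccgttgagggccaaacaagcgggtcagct
Ctsa, chr2:164833730-164833797, plus strand, first motif from position -13: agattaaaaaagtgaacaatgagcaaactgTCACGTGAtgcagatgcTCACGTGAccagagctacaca
Mcoln1, chr8:3500443-3500510, plus strand, motif from position -46: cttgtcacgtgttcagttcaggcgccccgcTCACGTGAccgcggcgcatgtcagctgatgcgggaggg
Atp6v0d1, chr8:105566031-105566098, minus strand, motif from position -4: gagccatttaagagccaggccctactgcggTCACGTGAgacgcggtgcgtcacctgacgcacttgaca
Atp6v1a, chr16:44139354-44139421, minus strand, motif from position -132: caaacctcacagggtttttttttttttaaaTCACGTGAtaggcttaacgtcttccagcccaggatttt
Cln3, chr7:126583321-126583388, minus strand, motif from position -122: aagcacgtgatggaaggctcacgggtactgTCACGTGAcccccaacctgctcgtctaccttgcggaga
Gla, chrX:134601196-134601255, minus strand, motif from position -228: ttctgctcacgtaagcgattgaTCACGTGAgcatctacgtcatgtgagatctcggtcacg

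Of these 7 members, Ctsd, Ctsa, Mcoln1, Atp6v0d1 and Atp6v1a were called lower in the unheated CHIP null cells at 30 min, and Cln3 and Gla were not. Members without TCACGTGA, Psap and Hexa among them, were called lower as well. Over all 31 members 23 were called lower in that comparison, a share near that of these 7. Whether the motif and the change go together was not tested.

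Other lysosomal genes, from lists compiled by role, were read in the same comparison. Of 33 other hydrolases tested, 18 were called lower and none higher (median change -0.22), including the protease Ctss (-1.06, also a macrophage marker), the iduronate sulfatase Ids (-0.66) and the protease Ctsf (-0.48). Of 14 other V-ATPase subunits, 11 were called lower (median change -0.36), with Atp6v0e2 at -1.26, Atp6v1f at -0.58 and Atp6v1d at -0.55. Of 20 other lysosomal membrane proteins, 11 were called lower and 1 higher, with Laptm4a at -0.60 and the peptide transporter Abcb9 at -0.57. Among 15 genes of lysosomal enzyme sorting, 5 were called lower, led by the receptor Sort1 (-0.70), and 1 higher. Among 19 genes of autophagy, 10 were called lower, led by Map1lc3b (-0.75), the cargo receptor Sqstm1 (-0.68) and Gabarapl1 (-0.67). Of 12 regulators of lysosomal genes tested, 3 were called lower (Rragd, Flcn and Lamtor2). With median centring the numbers called lower were 6 hydrolases, 5 V-ATPase subunits, 4 membrane proteins, 2 sorting genes, 2 autophagy genes and 1 regulator, with 1 hydrolase and 1 sorting gene called higher, and the median of the sorting genes and of the regulators was 0.03.

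All 12 tested macrophage markers were called lower in the same comparison, with a median change of -0.46, and Lyz2 (-2.68) and Marco (-2.36) had the largest changes, while 5 of 9 fibroblast markers were called higher, 1 of 4 epithelial markers lower and the tested endothelial marker lower (-0.25). The part of such cells in the members' changes was not tested, and in RNA from whole cultures fewer cells of a type and less RNA per cell cannot be told apart.

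**Figure D2:**
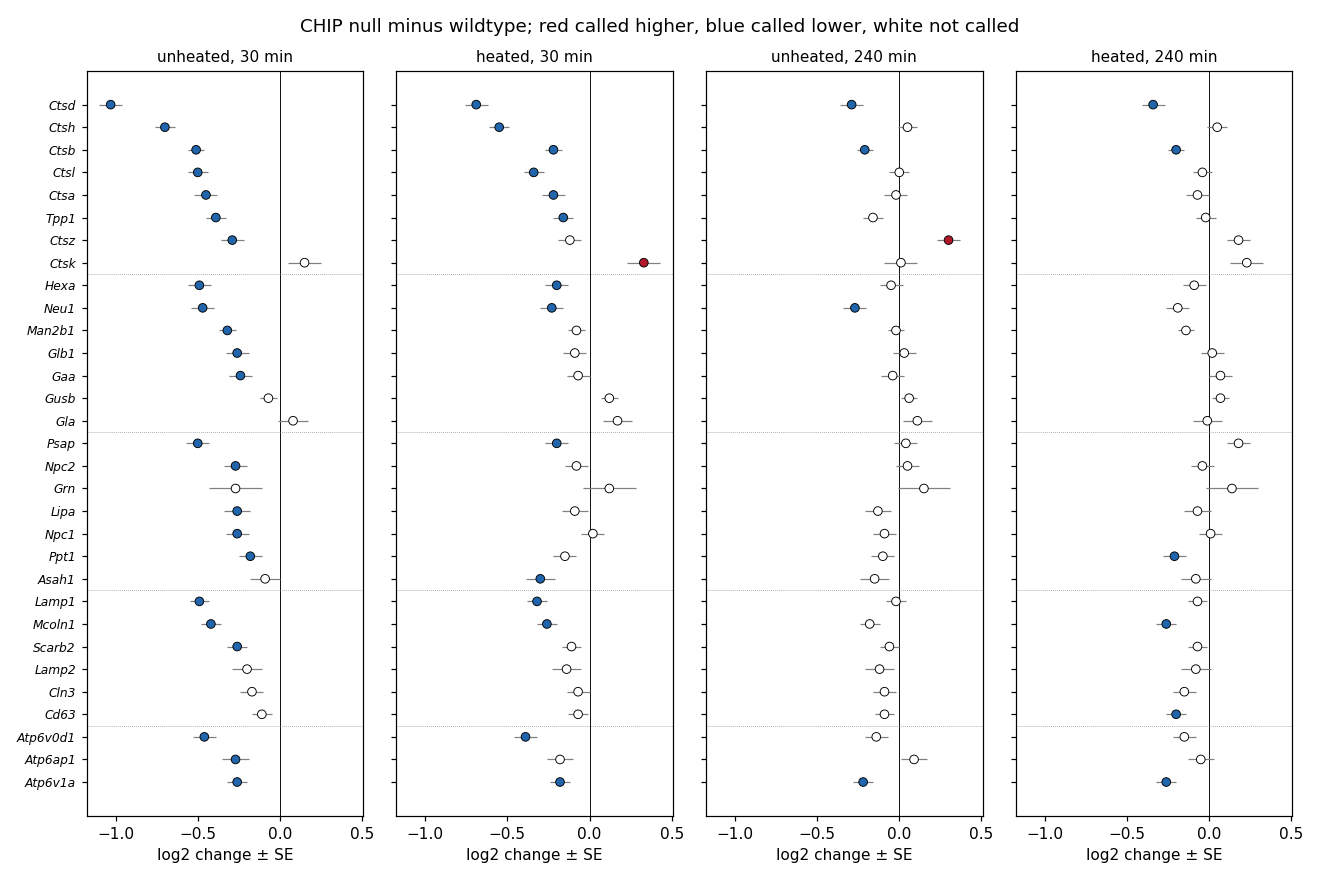
Change of each member in CHIP null against wildtype cells (horizontal axis, log2, with SE bars), by role and then by size of the change in unheated cells at 30 min, in 4 panels for treatment and time. Blue points were called lower and red points higher at an adjusted p under 0.05. The number called lower was 23 in unheated and 14 in heated cells at 30 min and 4 and 6 at 240 min. With median centring instead of loess, these 4 numbers were 3, 3, 0 and 4.

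After heating at the 30 min label, 14 members were called lower in the CHIP null cells than in the wildtype cells and 1 was called higher, where 13.3% of all tested genes were called lower and 14.2% higher. The members' median change was -0.15, against 0.01 over all tested genes. These 14 included 13 of the 23 called lower in unheated cells, and the added one was Asah1 (-0.30 ± 0.09, limma adjusted p = 0.014). The overlap of these calls over all tested genes is not given here. Median centring left 3 members called lower and none higher (median change -0.23), and so did the slide as a block (median change -0.12). Of 12 macrophage markers, 3 were called lower here (Lyz2 at -1.49, Marco at -0.53 and Ctss at -0.29), with a median change of -0.04. Of 9 fibroblast markers, 7 were called higher and 1 lower.

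Ctsd read 0.38, 0.36 and 0.28 in heated CHIP null cells, against 0.90, 1.03 and 1.16 in heated wildtype cells. Its change was -0.69 ± 0.07, 1.62-fold lower (limma adjusted p = 5.2e-09), and it was called under both median centring (-0.76) and the slide as a block (-0.68). Ctsh read -2.00, -2.03 and -2.02 in heated CHIP null cells, against -1.43, -1.48 and -1.49 in heated wildtype cells. It was 1.46-fold lower (-0.55 ± 0.06, limma adjusted p = 8.6e-09). The groups lay apart for both proteases, by more than the range within either group.

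Atp6v0d1, a subunit of the membrane sector of the pump, read 0.03, -0.06 and 0.05 in heated CHIP null cells, against 0.36, 0.46 and 0.38 in heated wildtype cells (change -0.39 ± 0.07, limma adjusted p = 7.5e-05). Ctsl read -0.55, -0.52 and -0.61 in heated CHIP null cells and -0.19, -0.23 and -0.25 in heated wildtype cells (change -0.34 ± 0.06). Neither pair of groups overlapped, and neither change was called with the slide as a block (-0.33 and -0.22). Ctsk was the member called higher, reading -1.38, -1.0 and -1.14 in heated CHIP null cells, against -1.47, -1.77 and -1.28 in heated wildtype cells. Its groups overlapped, at a change of 0.33 ± 0.10 (limma adjusted p = 0.013).

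At 240 min, in unheated cells 4 members were called lower in the CHIP null cells and 1 higher, where 8.26% of all tested genes were called lower and 4.8% higher, and the members' median change was -0.05, against -0.02 over all genes. In heated cells 6 were called lower and none higher, where 8.3% of genes were called lower and 4.66% higher, and the median change was -0.07, against -0.01. None of these 11 calls held with the slide as a block, and median centring gave 1 called higher and none lower in unheated cells and 4 called lower in heated cells. The count in unheated cells was 3 without unheated CHIP null replicate 2, and the count in heated cells was 3 without heated wildtype replicate 2. The macrophage markers were lower in the CHIP null cells at this time too, with 7 of 12 called in unheated and 5 of 12 in heated cells. So were the epithelial markers, with 4 of 4 called in unheated (median change -0.61) and 2 of 4 in heated cells (median change -0.41), and the 1 tested endothelial marker (-0.65 and -0.50). Of 9 fibroblast markers, 4 were called higher and 2 lower in unheated cells, and 4 higher and 2 lower in heated cells. The part of the cells with any of these markers in the members' changes was not tested. Xist and the Y-linked genes did not separate the genotypes at 240 min.

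Ctsd, Ctsb and Atp6v1a were called lower by their brightest probes in both unheated and heated cells at 240 min. The second probe gave -0.15 in unheated and -0.23 in heated cells for Ctsd, and -0.09 and -0.23 for Atp6v1a. For both genes it was called in heated cells only. The second, much dimmer Ctsb probe gave -0.03 and 0.08 and was called in neither. Ctsd read -0.46, -0.29 and -0.48 in unheated CHIP null cells, against -0.13, -0.10 and -0.14 in unheated wildtype cells (change -0.29 ± 0.07, limma adjusted p = 0.0045). In heated cells it read -0.46, -0.26 and -0.22 in the CHIP null, against -0.02, 0.07 and 0.01 in the wildtype (change -0.34 ± 0.07, limma adjusted p = 0.0011). No CHIP null array reached the wildtype range in either treatment. Atp6v1a read 0.70, 0.58 and 0.45 in unheated CHIP null cells, against 0.86, 0.73 and 0.79 in unheated wildtype cells (change -0.22). Its values in heated cells were 0.71, 0.67 and 0.70 in the CHIP null, against 0.98, 0.98 and 0.91 in the wildtype (change -0.26 ± 0.06, limma adjusted p = 0.0053). The groups did not overlap in either treatment, but in unheated cells the highest CHIP null value (0.70) lay close to the lowest wildtype value (0.73).

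Neu1, which removes sialic acid from glycoproteins and glycolipids, read -1.71, -1.87 and -1.62 in unheated CHIP null cells at 240 min, against -1.45, -1.45 and -1.48 in unheated wildtype cells (change -0.27 ± 0.07, limma adjusted p = 0.01). Ctsb read -0.83, -0.95 and -0.87 in unheated CHIP null cells, against -0.68, -0.66 and -0.69 in unheated wildtype cells (change -0.21). Ctsz ran the other way, with -0.94, -0.78 and -0.85 in unheated CHIP null cells, against -1.18, -1.05 and -1.24 in unheated wildtype cells (change 0.30 ± 0.07, limma adjusted p = 0.004). In heated cells Mcoln1 read -0.19, -0.13 and 0.02 in the CHIP null, against 0.07, 0.21 and 0.21 in the wildtype (change -0.26 ± 0.06, limma adjusted p = 0.0039). Ppt1 read -0.26, -0.09 and -0.00 in heated CHIP null cells, against 0.05, 0.06 and 0.17 in heated wildtype cells (change -0.21). Its other probes gave -0.03 and -0.06 there and were not called. Cd63 was lower in heated CHIP null cells, at a change of -0.20.

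The difference between the 2 times in the genotype change was tested as an interaction that was added after the genotype changes had been seen. In unheated cells 14 members had a more positive genotype change at 240 than at 30 min and none a more negative one, where 9.15% of all tested genes were called in the first direction and 8.92% in the second. Ctsd and Ctsh had the largest such differences (0.75 ± 0.10 and 0.75 ± 0.08), followed by Ctsz (0.59). In heated cells 6 members were called in that direction (7.26% of genes) and none in the other (10.4%), with Ctsh at 0.60 ± 0.08 (limma adjusted p = 2.4e-06). In unheated cells Ctsd and Ctsh were the members called with median centring (0.60 each) and with the slide as a block (0.77 and 0.74). In heated cells none was called with median centring, and Ctsh was with the slide as a block (0.66). Of 12 macrophage markers, 2 were called more positive in unheated cells, and 2 more positive and 4 more negative in heated cells. The wildtype cells of the 2 times differed in Xist and the Y-linked genes as given above.

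Heating was then compared with 37 °C within each genotype and time. In the CHIP null cells at 30 min, 17 members were called higher after heating and 1 lower, where 22.6% of all tested genes were called higher and 12.6% lower (35.3% in either direction). The members' median change was 0.23, against 0.03 over all genes. Higher were 6 of 8 proteases, 4 of 7 glycosidases, 5 of 7 lipid enzymes and carriers and 2 of 6 membrane proteins, while no pump subunit was called. The direction depended on the scaling: with median centring, which put the median of all genes at -0.18, the members' median was -0.13, none was called higher and 6 were called lower. With the slide as a block, 10 were called higher and none lower. Among the macrophage markers, 5 of 12 were called higher and 1 lower (Lyz2 at -0.89) in the same comparison, and with median centring none was called higher and 2 lower.

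The slide that held all 3 unheated CHIP null arrays of 30 min also held 1 heated array. On it, 29 of the 31 members were higher in the heated than in the unheated arrays, with a median difference of 0.15 by loess, and no test was possible for a single array. The share of all tested genes on this slide is not given here, so the count cannot be set against it. The same within-slide difference had a median of 0.02 in wildtype cells at 30 min (19 members higher). At 240 min it was 0.17 in CHIP null and 0.10 in wildtype cells, with 27 members higher in each.

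Grn had the largest change of the members called higher, with log2 ratios of 0.76, 0.74 and 0.18 in heated CHIP null cells, against -0.27, -0.08 and -0.34 in unheated CHIP null cells. Its change was 0.79 ± 0.16, 1.73-fold (limma adjusted p = 0.00039). A second, dimmer Grn probe read -0.06, 0.02 and -0.03 in heated CHIP null cells, against -0.16, -0.14 and -0.03 in unheated ones, and its change of 0.09 was not called. The Cy5 intensity of the first probe ranged from 5410 to 24100 over the arrays and that of the second from 553 to 1520, and none of the members' spots was saturated.

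Gaa, which degrades glycogen in lysosomes, read 0.09, 0.24 and 0.07 in heated CHIP null cells at 30 min, against -0.33, -0.30 and -0.25 in unheated ones (change 0.43 ± 0.07, limma adjusted p = 3.2e-05). Hexa read 0.43, 0.50 and 0.51 in heated cells, against 0.02, 0.05 and 0.11 in unheated cells (change 0.42 ± 0.07, limma adjusted p = 5.5e-05). Ctsa read -0.11, -0.00 and -0.07 in heated cells, against -0.39, -0.46 and -0.50 in unheated cells (change 0.39 ± 0.07). All heated arrays lay above all unheated ones for these 3 genes, and with median centring the changes were 0.03, 0.00 and -0.01. Asah1 was the member called lower, with 0.31, 0.27 and 0.22 in heated cells, against 0.51, 0.40 and 0.63 in unheated cells (change -0.24 ± 0.09, limma adjusted p = 0.042).

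In the wildtype cells at 30 min, heating gave 1 member called higher and none lower, where 6.77% of all tested genes were called higher and 7.79% lower. That member was Gaa, with 0.13, 0.17 and 0.29 in heated cells, against -0.04, -0.09 and -0.04 in unheated cells (change 0.25 ± 0.07, limma adjusted p = 0.0097). The members' median change was 0.04, against 0.01 over all genes, and with median centring it was -0.07, against -0.09. Leaving out single arrays moved the count, to 5 without unheated replicate 3, 2 without heated replicate 2 and 0 without heated replicate 3. Of 12 macrophage markers, 8 were called lower with Lyz2 at -2.09 and Marco at -1.58, while no member was called lower.

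In the CHIP null cells at 240 min, 8 members were called higher after heating and 1 lower, where 24.5% of all tested genes were called higher and 14.5% lower (39% in either direction). The count called higher was thus near the share of all genes. The median change was 0.12, against 0.07 over all genes. Of these 8, 6 were also called higher at 30 min in the CHIP null cells (Tpp1, Gaa, Glb1, Gusb, Hexa and Npc1). The same overlap over all tested genes is not given here. With median centring, which put the median of all genes at -0.18, the members' median was -0.17, none was called higher and 3 were called lower. With the slide as a block 8 were called higher and none lower. The count of 9 was 14 without heated replicate 1 and 5 without heated replicate 3, and 9 of 12 macrophage markers were called higher beside it, but none with median centring.

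Ctsk read -1.39, -1.06 and -1.20 in heated CHIP null cells at 240 min, against -1.61, -1.60 and -1.55 in unheated ones (change 0.37 ± 0.10, limma adjusted p = 0.0056). Tpp1, which removes tripeptides from the ends of proteins, read 0.16, 0.18 and 0.33 in heated cells, against -0.14, -0.17 and -0.03 in unheated cells (change 0.33 ± 0.06, limma adjusted p = 0.00019). Gusb read -0.06, 0.07 and 0.11 in heated cells, against -0.23, -0.21 and -0.30 in unheated cells (change 0.29 ± 0.05). The heated arrays lay above the unheated ones for all 3 genes. Gaa read -0.40, -0.27 and -0.20 in heated cells, against -0.61, -0.41 and -0.62 in unheated cells (change 0.25). Ctsl read -0.66, -0.79 and -0.90 in heated cells, against -0.50, -0.56 and -0.57 in unheated cells (change -0.24 ± 0.06, limma adjusted p = 0.0042), and it was called lower with median centring as well (-0.41).

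In the wildtype cells at 240 min, 10 members were called higher after heating and 1 lower, where 18.8% of all tested genes were called higher and 12.7% lower. The median change was 0.15, against 0.06 over all genes. The glycosidases held 5 of the 10, namely Gla, Gusb, Man2b1, Glb1 and Hexa. The dimmer Glb1 probes gave -0.01 and 0.09 there and were not called. No member was called with median centring, where the members' median was 0.09 and that of all genes -0.03, or with the slide as a block (median 0.10). The count of 11 was 7 and 6 without unheated replicates 1 and 3 and 5 and 4 without heated replicates 2 and 3. The macrophage list had 4 of 12 called higher, and none with median centring.

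Gla, the alpha-galactosidase, read 1.11, 1.17 and 1.15 in heated wildtype cells at 240 min, against 0.79, 0.78 and 0.88 in unheated ones (change 0.32 ± 0.09, limma adjusted p = 0.0058). Gusb read -0.10, 0.01 and -0.01 in heated cells, against -0.32, -0.32 and -0.28 in unheated cells (change 0.28 ± 0.05, limma adjusted p = 0.00033). Man2b1 read -0.56, -0.54 and -0.51 in heated cells, against -0.79, -0.82 and -0.78 in unheated cells (change 0.26 ± 0.05, limma adjusted p = 0.00083). For all 3 genes the heated arrays lay above the unheated ones. Npc2, which carries cholesterol inside the lysosome, read -0.08, -0.01 and -0.05 in heated cells, against -0.22, -0.29 and -0.32 in unheated cells (change 0.23). Ctsl was the member called lower, with -0.69, -0.70 and -0.84 in heated cells, against -0.49, -0.56 and -0.59 in unheated cells (change -0.20 ± 0.06, limma adjusted p = 0.016).

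**Figure D3:**
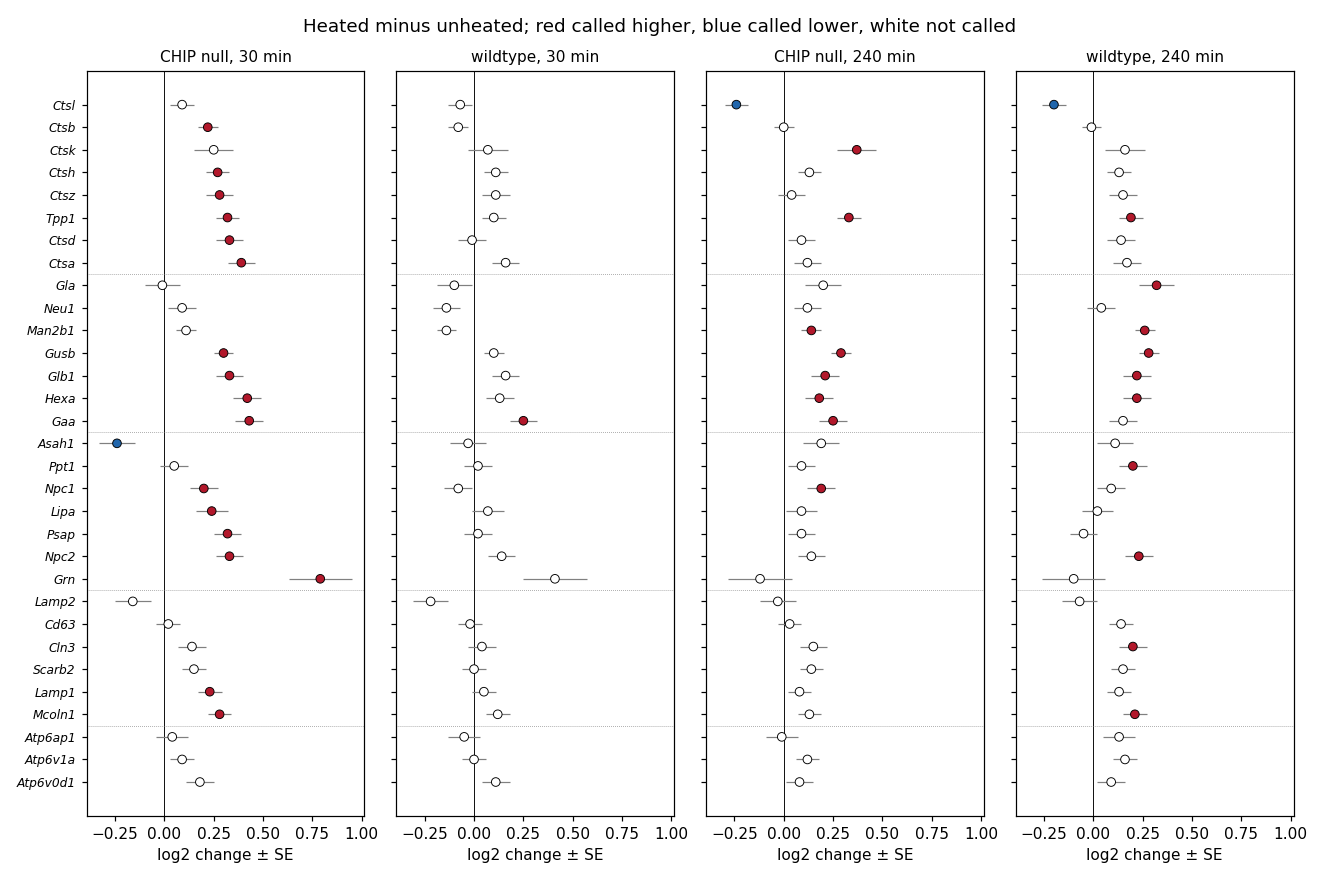
Change of each member in heated against unheated cells (horizontal axis, log2, with SE bars), by role and then by size of the change in CHIP null cells at 30 min, in 4 panels for genotype and time. Red points were called higher and blue points lower at an adjusted p under 0.05, 17 and 1 in CHIP null and 1 and 0 in wildtype cells at 30 min, and 8 and 1 in CHIP null and 10 and 1 in wildtype cells at 240 min. With median centring none was called higher in any panel, and 6 and 3 were called lower in the CHIP null cells at 30 and 240 min.

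Other lysosomal lists were read under the same heat comparisons. Of 33 other hydrolases, 11 were called higher and 2 lower in CHIP null cells and 1 higher and 2 lower in wildtype cells at 30 min, and 14 higher and 1 lower in CHIP null and 17 higher and 1 lower in wildtype cells at 240 min. With median centring no hydrolase was called higher in any of these comparisons, and 7 and 1 were called lower at 30 min and 3 and 1 at 240 min. Arsa, the arylsulfatase A, was called higher in all 4 with loess (0.26, 0.24, 0.29 and 0.27 in that order), but with median centring it read -0.11, 0.08, -0.04 and 0.17 and was not called. Ids was called lower in all 4 (-0.41, -0.33, -0.61 and -0.58), and with median centring in 3, with the wildtype cells at 30 min (-0.54) not called. Among the regulators, Fnip1 and Rragc, which act in nutrient signalling at the lysosome, were called lower in all 4 under both scalings. Rragc differed by -0.50 and -0.54 at 30 min and by -0.62 and -0.55 at 240 min in CHIP null and wildtype cells with loess. These 4 genes were singled out after their values were seen. The sorting gene Gnptg and the pump subunits Atp6v0b and Atp6v0e2 were called higher, and the sorting gene Vps35, the membrane protein Cd164 and the autophagy kinase Ulk1 lower, in the same 4 comparisons with loess. With median centring Gnptg, Atp6v0b and Atp6v0e2 were called in none of the 4, with Atp6v0b and Atp6v0e2 at -0.14 and -0.10 in CHIP null cells at 240 min, and Vps35, Cd164 and Ulk1 were called lower in 2 of the 4, the CHIP null cells at both times.

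Whether heat acted differently in the 2 genotypes was tested as an interaction. None of the 31 members was called at 30 min by limma, where 0.445% of all tested genes were (0.385% higher and 0.0593% lower), though 11 members had an unadjusted p under 0.05, all with a more positive heat change in the CHIP null cells, against 11.7% of all genes. The lowest adjusted p was that of Ctsb (0.078, difference 0.30 ± 0.08), and that of Ctsd was 0.14 (difference 0.34 ± 0.10). The members' median difference was 0.17, against 0.03 over all genes, but -0.05 against -0.11 with median centring. The counts of 17 and 1 called higher in the 2 genotypes therefore came without a called difference for any single member. Of 12 macrophage markers, 7 were called in this interaction, all more positive in the CHIP null cells, and 3 with median centring. At 240 min no member and no gene was called by limma (0% of genes), and 0 of 31 members and 3.49% of all genes had an unadjusted p under 0.05. No other tool was run.

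Whether the heat change differed between the times was tested in each genotype. In the CHIP null, Grn (-0.91 ± 0.22, limma adjusted p = 0.029) and Ctsl (-0.33 ± 0.09, limma adjusted p = 0.043) were called with a lower heat change at 240 min, where 1.29% of genes were called in that direction and 1.08% in the other (2.37% in all). Grn at 240 min read -1.07, -0.87 and -0.87 in heated CHIP null cells, against -0.96, -0.42 and -1.09 in unheated ones, which overlapped. Ctsl at 30 min read -0.55, -0.52 and -0.61 in heated and -0.60, -0.72 and -0.64 in unheated CHIP null cells. The second Grn probe had a change of 0.09 with heat at 30 min and was not called there, and neither the Grn nor the Ctsl difference was called with median centring, the smaller offset, the array software's ratio, the slide as a block or the fit of these arrays alone. In the wildtype, Man2b1 was the member called, where 0.741% of all genes were called in that direction and 0.519% in the other (1.26% in all). Beside it, 6 of 12 macrophage markers were called in that direction. Its heat change was higher at 240 than at 30 min by 0.40 ± 0.08 (limma adjusted p = 0.007). At 30 min it had read -0.24, -0.34 and -0.32 in heated wildtype cells, against -0.17, -0.15 and -0.17 in unheated ones. Man2b1 was not called with median centring, the software's ratio or the slide as a block.

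The unheated cells of the 240 min label were set against those of the 30 min label. These groups lie on separate slides, so a difference of time and one of slide cannot be told apart. In the wildtype, the cells of the 2 times also differed in Xist and the Y-linked genes, which cannot be told apart from time either. In the CHIP null, 6 members were called higher and 9 lower at 240 min, where 19% and 29.6% of all tested genes were (48.7% in either direction). Both counts were near these shares. Ctsd differed by -0.41 ± 0.07 and Psap by -0.43 ± 0.07 in the CHIP null. In the wildtype, 4 members were called higher and 19 lower, where 27.9% and 35.6% of all tested genes were (63.6% in either direction). Ctsd differed by -1.16 ± 0.07, Grn by -1.01 ± 0.16, Psap by -0.97 ± 0.07, Ctsh by -0.97 ± 0.06 and Ctsz by -0.81 ± 0.07 (limma, all called). All 9 lower calls of the CHIP null were among the 19 of the wildtype, and this overlap over all tested genes is not given here. Asah1 was higher at 240 min in both genotypes, by 0.53 ± 0.09 in the CHIP null and 0.59 ± 0.09 in the wildtype, and so were Atp6v1a (0.43 and 0.39), Gla (0.39 and 0.36) and Cd63 (0.32 and 0.29). With median centring, 5 were higher and 2 lower in the CHIP null, and 4 higher and 11 lower in the wildtype. The macrophage markers moved with this contrast, 11 of 12 being called lower in the CHIP null and all 12 in the wildtype.

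**Figure D4:**
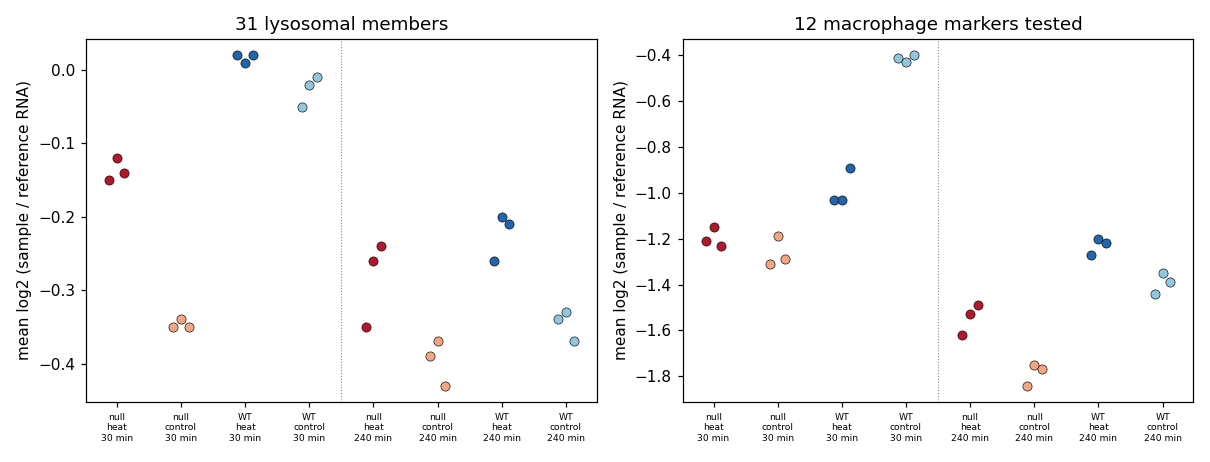
Mean log2 ratio of sample over reference RNA per array (vertical axis) of the 31 lysosomal members (left) and of the 12 tested macrophage markers (right), 3 arrays per group. The member means at 30 min were -0.15 to -0.12 in heated and -0.35 to -0.34 in unheated CHIP null cells, against 0.01 to 0.02 in heated and -0.05 to -0.01 in unheated wildtype cells, while the marker means were highest in the unheated wildtype cells.

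The means over all members can be read beside the macrophage markers by array. In wildtype cells at 30 min the member mean was 0.01 to 0.02 in heated and -0.05 to -0.01 in unheated cells, while the macrophage mean was -1.03 to -0.89 in heated and -0.43 to -0.40 in unheated cells. With loess, the heated wildtype arrays of 30 min all had a lower marker mean and a higher member mean than the unheated ones. With median centring the members' median heat change there was -0.07, against -0.09 over all genes. The part of the markers in the member means was not tested. At 240 min the member means ranged from -0.35 to -0.24 in heated and -0.43 to -0.37 in unheated CHIP null cells, and from -0.26 to -0.20 in heated and -0.37 to -0.33 in unheated wildtype cells.

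The members had 56 probes, of which 48 passed the filter, and 14 members had more than 1 such probe. In 10 members (Grn, Lamp2, Scarb2, Ctsb, Glb1, Psap, Ctsa, Ppt1, Atp6v1a and Gusb) the brightest probe and another differed in sign in at least 1 heat or genotype comparison, and in Grn and Lamp2 they differed by over 0.5. The brightest Lamp2 probe read -0.13, -0.16 and -0.09 in heated CHIP null cells at 30 min, against 0.02, -0.02 and 0.09 in unheated ones (change -0.16, not called). The other Lamp2 probe read -0.04, 0.00 and 0.00 in heated cells, against -0.42, -0.37 and -0.31 in unheated cells (change 0.35, called). In unheated CHIP null against wildtype cells at 30 min, 11 of the 23 called members had another probe, which was called in the same direction for 8 and had the opposite sign for 2. The opposite values were 0.02 for a dim probe of Ctsa and 0.09 for a dim probe of Glb1. The other genotype comparisons had less agreement between probes. In heated cells at 30 min, 7 called members had another probe, called in the same direction for 2 and of opposite sign for 1. At 240 min these numbers were 5, 1 and 0 in unheated cells and 4, 2 and 1 in heated cells. For heat they were 9, 6 and 1 in CHIP null cells at 30 min. At 240 min they were 3, 2 and 0 in CHIP null and 4, 3 and 1 in wildtype cells. The opposite values were -0.01 for a dim Ctsa probe in CHIP null cells at 30 min and -0.01 for a dim Glb1 probe in wildtype cells at 240 min. The 1 member called for heat in wildtype cells at 30 min had no other probe.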

How the data were processed

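Spot and local background intensity values of 24 arrays were deposited as Agilent Feature Extraction 9.1.3.1 output, uncorrected, per the file headers. The same deposited files hold a log10 ratio after the software's background subtraction and dye normalization, and other columns that mark dim, saturated and uneven spots, as their headers name them. A deposited value table holds a score for 28139 probes. Set against the scanner files, each score was the log10 ratio over ln 2, less the control mean in heated columns. Its steps are not given in the sources used here.

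Background was corrected with normexp (offset 50) and log2 ratios were normalized by loess within arrays, control spots having weight 0, after 333 outlier spots were removed. A gene entered by its brightest probe if the Cy5 signal was well above background on every array of at least 1 group, in 1 limma 3.58.1 fit (R 4.3.3) over 8 groups with Benjamini-Hochberg adjustment at 0.05. Alternatives were median centring, offset 10, the software's ratio, no filter, slide or replicate blocks, the mean of probes, each comparison's own arrays, the value table and leaving out each array, and the code was tested on simulated data. Arrays were well above background for 32.9% to 48.6% of probes, and their number limits the precision. Same-numbered arrays did not pair (9 of 24 correlations over 0.1).

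The members and gene lists were chosen with earlier results of these data known. Values on every array are given for up to 4 called members of the largest change per direction and comparison and for members called in interactions. The same rule asked for every member whose probes differ in sign, of which only Grn and Lamp2, differing by over 0.5, are given by array. Up to 3 called genes of other lists are named per comparison, plus genes called in all 4 heat comparisons. Values named for other members, and those plotted by array, were chosen for their role or after they were seen. Promoters came from RefSeq (GRCm38.p6).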

Additional observations from a re-analysis of the deposited data

Results flagged for a closer look

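Several members had an effect that differed between times by a test of the difference itself (limma, adjusted over all genes). The change of CHIP null against wildtype cells was more positive at 240 than at 30 min for 14 members in unheated cells. Of all tested genes 9.15% were called in that direction in unheated and 7.26% in heated cells. With median centring 2 members were called in unheated and 0 in heated cells. With loess the differences in unheated cells were 0.75 for Ctsd and Ctsh, 0.59 for Ctsz, 0.54 for Psap, 0.50 for Ctsl, 0.47 for Lamp1, 0.43 for Hexa and Ctsa, 0.36 for Atp6ap1, 0.32 for Npc2 and Atp6v0d1, 0.31 for Ctsb, 0.30 for Man2b1 and 0.25 for Mcoln1. In heated cells they were 0.60 for Ctsh, 0.39 for Psap, 0.36 for Ctsd, 0.31 for Ctsz, 0.30 for Ctsl and 0.25 for Lamp1. The heat change differed between the times for Man2b1 in wildtype cells (0.40) and for Grn (-0.91) and Ctsl (-0.33) in CHIP null cells. The second Grn probe had a heat change of 0.09 at 30 min and -0.01 at 240 min in CHIP null cells, neither called. All of these differences between times set arrays of separate slides side by side. Macrophage markers were called in the same interactions, 6 of 12 (all more positive) for the heat change between times in wildtype cells and 1 in CHIP null cells, 2 (more positive) for unheated genotype by time, and 2 more positive and 4 more negative for heated genotype by time, and the value table carries the other time label for every array. The part of the markers in these differences was not tested. The wildtype cells lacked Xist signal above background (0 of 6 arrays) and had Ddx3y and Eif2s3y at 30 min, and had Xist (6 of 6 arrays) without the Y-linked genes at 240 min. For the genotype by time values and for Man2b1, time, slide and this difference between the wildtype cells cannot be told apart. For Grn and Ctsl, time and slide cannot.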

How the results depend on the processing

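In each series of counts below, members called (higher and lower together) are given first for heat (CHIP null 30 min, wildtype 30 min, CHIP null 240 min, wildtype 240 min) and then for CHIP null against wildtype (unheated 30, heated 30, unheated 240, heated 240 min). The counts with the settings of the report were 18, 1, 9 and 11 and then 23, 15, 5 and 6. Median centring gave 6, 0, 3 and 0 and then 3, 3, 1 and 4. The slide as a block gave 10, 0, 8 and 0 and then 9, 3, 0 and 0, and the deposited value table gave 6, 5, 15 and 3 and then 4, 2, 25 and 16. That table was used with its own time labels, so its columns for 30 min hold the arrays given here as 240 min and the reverse, and it was not run for the comparisons between times. The offset of 10 gave 5 for heat at 240 min in both genotypes and 3 for heated cells at 240 min. The array software's ratio gave 3 and 5 for heat in wildtype cells at 30 and 240 min and 2 for heated cells at 240 min. The comparison's own arrays alone gave 5 for heat in CHIP null cells at 240 min, 2 for heat in wildtype cells at 30 min and 3 for heated cells at 240 min.

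For the heat change between times, the count of 2 in CHIP null cells was 0 with median centring, offset 10, the software's ratio, the slide as a block or own arrays alone, and 1 with no filter or with the mean of probes. The count of 1 in wildtype cells was 0 with median centring, the software's ratio or the slide as a block. For 240 against 30 min, median centring gave 7 in CHIP null and 15 in wildtype cells. For genotype by time, it gave 2 in unheated and 0 in heated cells, and the slide as a block 2 and 1.

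Leaving out each array in turn gave 15 to 18, 0 to 5, 5 to 14 and 4 to 12 for heat and 21 to 25, 10 to 13, 3 to 5 and 3 to 8 for genotype, in the order above. It gave 0 to 1 and 0 to 0 for genotype by heat at 30 and 240 min, 0 to 2 (CHIP null) and 1 to 2 (wildtype) for time by heat, 12 to 16 (CHIP null) and 23 to 24 (wildtype) for 240 against 30 min, and 10 to 14 (unheated) and 4 to 6 (heated) for genotype by time. The 1 member called in genotype by heat appeared without heated CHIP null replicate 1, and the 2 in wildtype time by heat without unheated replicate 3 of 30 min. In CHIP null time by heat, the count was 0 without unheated replicates 1 or 3 or heated replicate 2 of 30 min, or replicate 2 of either treatment at 240 min, and 1 without unheated replicate 2 of 30 min, unheated replicates 1 or 3 of 240 min or heated replicate 3 of 240 min.

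Values of single members turned in sign as follows. With median centring, heat in CHIP null cells at 30 min gave Ctsa -0.01, Ctsb -0.17, Ctsd -0.07, Ctsh -0.15, Ctsz -0.13, Tpp1 -0.04, Glb1 -0.05, Gusb -0.08, Lipa -0.05, Npc2 -0.07, Psap -0.09, Lamp1 -0.18 and Mcoln1 -0.13. At 240 min it gave Gaa -0.07, Glb1 -0.13, Gusb -0.05, Hexa -0.08, Man2b1 -0.20 and Npc1 -0.08, and 240 against 30 min in wildtype cells gave Ctsl 0.06. With the value table, again by its own time labels, heat gave Ctsb -0.00, Ctsz -0.05, Asah1 0.19, Psap -0.03, Grn -0.17 and Lamp1 -0.02 in CHIP null cells at 30 min and Gla -0.11 and Man2b1 -0.10 in wildtype cells at 240 min. Between genotypes the value table gave Ctsh 0.09, Ctsl 0.04, Ctsz 0.31, Glb1 0.06, Man2b1 0.02, Npc2 0.04, Psap 0.03 and Atp6ap1 0.14 in unheated cells and Ctsh 0.12, Ctsl 0.04 and Psap 0.13 in heated cells at 30 min, and Ctsz -0.27 in unheated cells at 240 min. The slide as a block gave Npc1 0.02 and Npc2 0.08 in unheated and Hexa 0.03 and Psap 0.02 in heated cells at 30 min, and Npc2 -0.08 and Mcoln1 -0.02 in unheated genotype by time. The mean of probes gave Ppt1 0.27 in CHIP null and 0.22 in wildtype cells for 240 against 30 min. Apart from the turned time labels of the value table, the cause was not tested.

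The replicate numbers did not pair the arrays, with correlations of deviations from -0.255 to 0.57. With the replicate number as a block the counts were 18, 1, 9 and 12 for heat and 23, 14, 5 and 6 for genotype, within 1 member of those above. Dim probes limit what can be seen, since the median Cy5 signal was 1.13 to 1.29 times its background.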
